A study of Mus musculus with 8 samples.

Results

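The genes described here are the dopamine receptor genes Drd1 to Drd5, the dopamine synthesis gene Th, the dopamine uptake gene Slc6a3 and the monoamine breakdown gene Maoa. They were measured by the array probes whose gene name in the scanner files was one of these symbols or Drd1a, an older name for Drd1 that no probe carried. This gave 13 probes for 8 genes, of 56605 probes for 37074 gene names in all, and 4 of the genes had more than 1 probe. Whole cerebral cortex and striatum were taken from 4 male B6 mice (C57BL/6J, a common reference strain) and 4 male BTBR/R mice (BTBRTF/ArtRbrc, an inbred subline of the BTBR strain), with no treatment given in the labels. The RNA of each mouse was hybridised to an Agilent 1-colour array of its own. Age was 4 months throughout, with BTBR/R replicate 1 at 6 months as the exception. The 8 arrays lay on 1 slide, B6 in its column 1 and BTBR/R in its column 2, and the effects of column and strain cannot be told apart.

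Dopamine is made from tyrosine by tyrosine hydroxylase (Th) and Ddc, packed into vesicles by Slc18a2, taken back into the axon by the plasma membrane transporter Slc6a3 and broken down by monoamine oxidases and other enzymes. Its receptors fall into a D1-like pair, Drd1 and Drd5, which couple to stimulatory G proteins, and a D2-like group, Drd2, Drd3 and Drd4, which couple to inhibitory ones. Striatal projection neurons of the direct pathway carry Drd1 and those of the indirect pathway carry Drd2, while the cell bodies that make dopamine for the striatum lie in the midbrain. Th transcripts also occur in noradrenergic cells and in a class of olfactory bulb interneurons.

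Each probe is a 60-base DNA strand, and which bases a probe reads sets what its value can say. The probe for Drd3 and the brightest probe for Drd4 are shown because they lie in related stretches of both receptor genes. Capitals mark the 37 of 48 aligned bases that both probes share, so that a large part of each probe is common to the other transcript.
Drd3, chr16:43822893-43822952, plus strand: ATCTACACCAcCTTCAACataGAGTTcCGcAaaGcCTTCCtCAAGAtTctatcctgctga
Drd4 probe 1, chr7:148480683-148480742, plus strand: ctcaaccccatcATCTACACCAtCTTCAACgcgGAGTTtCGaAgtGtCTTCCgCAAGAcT

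The single probe for Drd2 and probe 2 for Th are shown whole, the first because Drd2 rests on it alone and the second because it covers 60 bases of transcript but 212 bases of genome, so that an intron separates its bases in the genome. The longest run that either shared with a probe for another gene was 16 bases for Drd2 and 13 bases for Th.
Drd2, chr9:49215047-49215106, plus strand: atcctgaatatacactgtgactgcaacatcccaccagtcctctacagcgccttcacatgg
Th probe 2, chr7:150080370-150080581, minus strand: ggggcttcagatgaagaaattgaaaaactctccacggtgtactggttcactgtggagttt

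The first 30 bases of both Drd1 probes are shown because these probes gave different answers. Probe 1 starts at position 3436 of the transcript and probe 2 at position 2744. Their starts lie 692 bases apart in the transcript and also 692 bases apart in the genome, so that no intron separates them.
Drd1 probe 1, chr13:54146585-54146644, minus strand: gtgttacgtactttgaatgttttctcagct
Drd1 probe 2, chr13:54147277-54147336, minus strand: ctcaagaagaaatccaactttagatttctg

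Positions are those of the mm9 build in the array annotation. Values below are scaled signals, the log2 processed signal of a probe minus the 75th percentile of its array, so that 0 is the level of a probe brighter than 75% of the array. Probes of a gene are numbered by brightness, and levels of different probes are not set against each other. Changes are BTBR/R minus B6 from limma, with p-values adjusted over all 56605 probes (Benjamini-Hochberg). A call needed both a 2-fold difference or more and an adjusted p under 0.05. Replicates were separate mice. A probe was detected on an array when the scanner software marked it well above background, for which the lowest signal was 14.5 to 17.8 on B6 arrays and 36.1 to 47.1 on BTBR/R arrays.

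Of the 13 probes, 6 were detected on all 8 arrays, for Drd1 (both probes), Drd2, Drd5, Th and Maoa. A further 5 were detected on all 4 B6 arrays and on 0 to 3 BTBR/R arrays, and 2 Drd4 probes were detected on no array. None of the 6 probes detected on all 8 arrays was called, where 2.20% of all such probes were. A single one of them passed the adjusted p, namely Drd1 probe 2, where 26.9% of all such probes did. The strains did not overlap for that probe alone among the 6, where 32.6% of such probes did not.

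**Figure D1:**
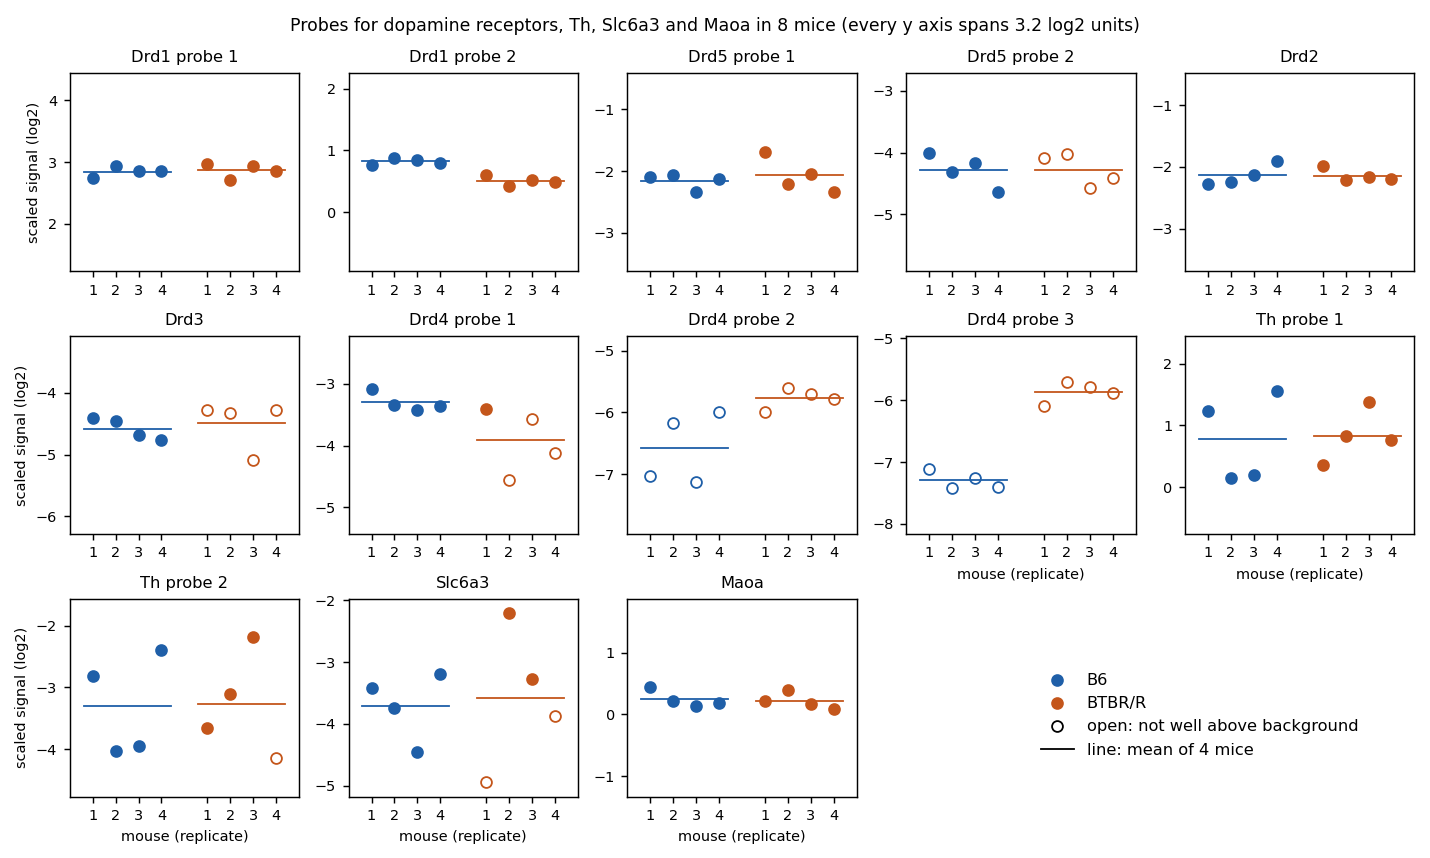
Scaled signal (log2) of each of the 13 probes in the 4 B6 mice (blue) and 4 BTBR/R mice (orange), with open circles where the probe was not well above background and lines at the strain means. Drd1 probe 2 separates the strains by 0.31, Th and Slc6a3 spread widely within both strains, and Drd4 probe 3 differs by 1.43 with every circle open.

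Drd1, the receptor of direct-pathway neurons, was read differently by its probes. On probe 1, the B6 mice gave 2.74, 2.94, 2.85 and 2.86 and the BTBR/R mice 2.97, 2.71, 2.94 and 2.85. The strains overlapped throughout, and the change was 0.02 (standard error 0.07, 95% interval -0.16 to 0.19, limma adjusted p = 0.879). On probe 2, the B6 mice gave 0.76, 0.88, 0.85 and 0.80 and the BTBR/R mice 0.60, 0.42, 0.53 and 0.49. Every BTBR/R mouse lay below every B6 mouse here, and the signal fell by 19.6%, a change of -0.31 (standard error 0.06, 95% interval -0.44 to -0.18, limma adjusted p = 0.0031). When the arrays were scaled by spike-in controls instead, which raised the median change of detected probes to 0.12, the change of probe 2 was -0.20 and no longer passed (limma adjusted p = 0.103). The bases under the probes were not compared between the strains. In these combined tissues, fewer cells of a type and less RNA per cell cannot be told apart.

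The distance between the Drd1 probes does not depend on how an array is scaled, and it was compared after their values had been seen. Probe 2 minus probe 1 was -1.98, -2.06, -2.01 and -2.06 in the B6 mice and -2.37, -2.29, -2.41 and -2.36 in the BTBR/R mice. The strains did not overlap, and the distance changed by -0.33 (standard error 0.05, 95% interval -0.44 to -0.22), a 1.26-fold shift. Over the 9690 such distances between detected probes of 1 gene, 18.8% passed an adjusted p of 0.05, and so did this one (limma adjusted p = 0.00117). A shift at least this large was found for 16.7% of the distances. Within the strains, both probes followed each other from mouse to mouse, with a Pearson r of 0.944 between their deviations from the strain means over 8 arrays.

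**Figure D2:**
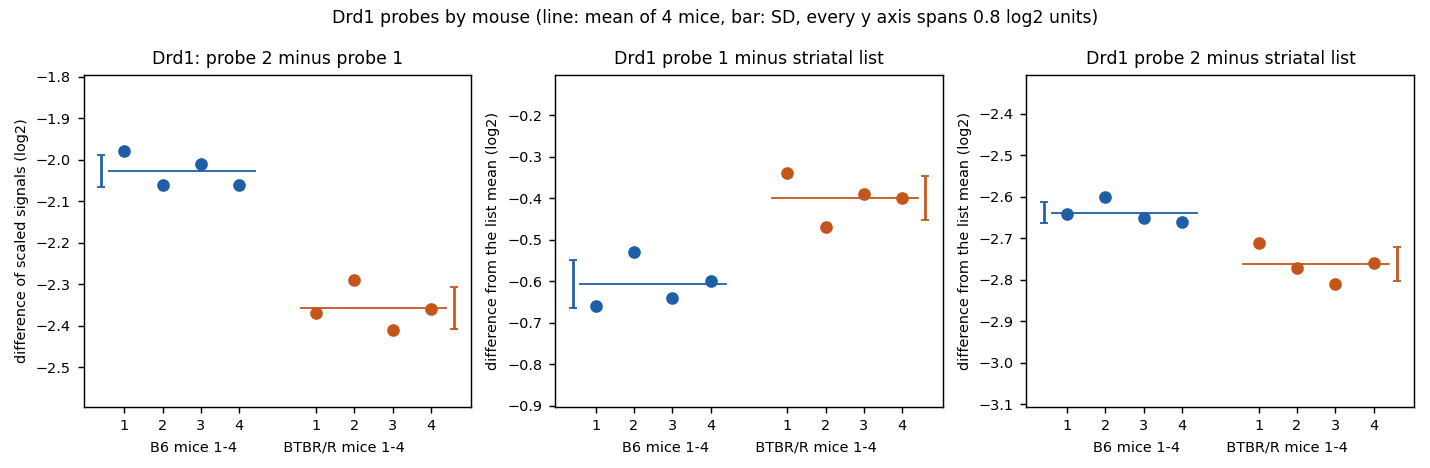
Left, the log2 difference of Drd1 probe 2 from Drd1 probe 1 in each mouse, which lies between -2.06 and -1.98 in B6 mice (blue) and between -2.41 and -2.29 in BTBR/R mice (orange). Middle and right, each Drd1 probe minus the mean of 10 striatal projection neuron genes, with lines at strain means and bars of 1 SD.

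Drd1 and Drd2 were also set against genes of the striatal projection neurons that carry them, since the dissection can hold more or less striatum. Relative to the mean of 10 shared striatal genes, Drd1 probe 1 was -0.61 ± 0.05 (SD, n = 4) in B6 and -0.40 ± 0.05 in BTBR/R mice, and probe 2 was -2.64 ± 0.03 and -2.76 ± 0.04. The list itself lay 0.19 lower in BTBR/R mice, at 3.40 to 3.50 in B6 and 3.18 to 3.34 in BTBR/R mice. Of its 10 genes, 1 was higher and 2 were lower at an adjusted p below 0.05 on their brightest probe, and 7 did not pass. Rasgrp2 rose by 0.17 (limma adjusted p = 0.0434). Pde10a, a cyclic nucleotide phosphodiesterase of striatal neurons, fell by 1.07 on the log2 scale (limma adjusted p = 2.49e-05). Scn4b, a sodium channel subunit, fell by 0.66 (limma adjusted p = 0.000209). Pde10a and Scn4b were left out after their values were seen, and without them the list changed by -0.02. The relative change was then 0.04 for Drd1 probe 1, in place of 0.21, and -0.29 for probe 2, in place of -0.12.

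Drd2, the receptor of indirect-pathway neurons and of dopamine neurons themselves, gave -2.27, -2.25, -2.13 and -1.90 in B6 mice and -1.99, -2.22, -2.17 and -2.20 in BTBR/R mice. The strains overlapped, with the highest value in B6 replicate 4. The change was -0.01 (standard error 0.10, limma adjusted p = 0.952), and its 95% interval ran from a ratio of 0.847 to 1.17. Relative to the 10 striatal genes Drd2 differed by 0.18 and the strains overlapped, and without Pde10a and Scn4b by 0.01. Of 8 direct-pathway genes and 4 indirect-pathway genes whose brightest probe was detected on all 8 arrays, 0 passed the adjusted p on that probe, where 28.4% of all gene names with such a probe did, and the median changes were 0.03 and 0.01 beside 0.00 over all detected genes. Among these brightest probes the lowest p belonged to Eya1, a transcription cofactor (0.12, adjusted p = 0.202), and to Sp9, a transcription factor of indirect-pathway neurons (0.45, adjusted p = 0.179). A dimmer probe for Isl1, a transcription factor of direct-pathway neurons, was detected on all 8 arrays and fell by 0.66 (limma adjusted p = 0.0355), while the brightest Isl1 probe differed by 0.08 and did not pass.

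Drd5, the D1-like receptor of cortical and hippocampal neurons, had 1 probe detected on all 8 arrays, which gave -2.10, -2.06, -2.34 and -2.13 in B6 mice and -1.69, -2.20, -2.04 and -2.34 in BTBR/R mice. The highest value was that of the 6-month-old mouse, the strains overlapped, and the change was 0.09 (standard error 0.14, 95% interval -0.24 to 0.42, limma adjusted p = 0.659). The other Drd5 probe was detected on all 4 B6 arrays and on no BTBR/R array, and as its B6 signal lay under the BTBR/R detection limit no fold can be given. On this dim probe the deviations of the mice had a Pearson r of 0.133 with those on the brighter one over 8 arrays.

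Drd3 and Drd4 were near the detection limit. Drd3, a receptor of the ventral striatum, was detected on all 4 B6 arrays at -4.77 to -4.41 and on no BTBR/R array, where it read -5.09 to -4.27. Its B6 values lay below the BTBR/R detection limit of -3.97 to -3.55, so that no fold can be given. Drd4 probe 1 gave -3.09, -3.34, -3.42 and -3.35 in B6 mice, all detected, and -3.40, -4.56, -3.57 and -4.12 in BTBR/R mice, of which only the first was detected. Drd4 is a receptor of cortical neurons. The strains overlapped on this probe, and the measured change of -0.61 did not pass (standard error 0.25, limma adjusted p = 0.0937). Without BTBR/R replicate 1, the only BTBR/R array that detected it, the change was -0.78 and passed (limma adjusted p = 0.0377). It was -0.40 without BTBR/R replicate 2 and -0.15 with normexp background correction, and passed with neither (limma adjusted p = 0.144 and 0.19).

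The only probe of the 13 that met the rule for a call was Drd4 probe 3, where 22.4% of all probes did. It was detected on no array, and lay at -7.42 to -7.11 in B6 and at -6.09 to -5.70 in BTBR/R mice, a difference of 1.43. Of the 14874 probes detected on no array, 67.7% were called higher in BTBR/R mice. With normexp background correction the difference was 0.15 and with quantile normalization 0.06, and neither passed (limma adjusted p = 0.229 and 0.102). Drd4 probe 2, likewise detected on no array, differed by 0.81 (limma adjusted p = 0.0505). No fold is given for either.

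Th, which codes for the rate-limiting enzyme of dopamine synthesis, differed more between mice than between strains. On probe 1, detected on all 8 arrays at chr7:150078703-150078762, the processed signal was 1325, 618, 641 and 1676 in B6 mice and 721, 951, 1481 and 1007 in BTBR/R mice. On the log2 scale these were 1.23, 0.14, 0.20 and 1.55 and then 0.35, 0.83, 1.37 and 0.77. The highest and lowest mouse differed 2.66-fold in B6 and 2.03-fold in BTBR/R, and the pooled within-strain SD of 0.59 was larger than that of 99.3% of the probes detected on all 8 arrays. The strain means differed by 0.05 (standard error 0.38, limma adjusted p = 0.935). With this spread the 95% interval ran from -0.84 to 0.93, a ratio of 0.559 to 1.91. Strain differences within that range cannot be told from none here.

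The exon-spanning Th probe 2 gave -2.82, -4.03, -3.94 and -2.39 in B6 mice and -3.65, -3.10, -2.19 and -4.14 in BTBR/R mice, and it was detected on every array but BTBR/R replicate 4. B6 replicates 1 and 4 and BTBR/R replicate 3 were high on both probes, with an r of 0.883 between the deviations on both over 8 arrays. The change on probe 2 was 0.02 (standard error 0.53, limma adjusted p = 0.979). Slc6a3, the dopamine transporter, gave -3.42, -3.74, -4.46 and -3.19 in B6 mice, all detected, and -4.94, -2.21, -3.28 and -3.87 in BTBR/R mice, of which replicates 2 and 3 were detected. It spanned 2.41-fold in B6 mice, and the change of 0.13 did not pass (standard error 0.57, limma adjusted p = 0.884). No fold is given for either probe, since not every BTBR/R array measured it.

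The genes whose differences between mice were most like those of Th probe 1 were Sp8, a transcription factor of olfactory bulb interneurons (r = 0.996), Kank3 (0.990), Lgr5 (0.988), Fabp7, a brain fatty acid binding protein (0.985), and Inpp5j (0.985), among 14680 genes and over 8 arrays. With the 2 mice farthest from their strain mean left out, these r lay between 0.976 and 0.995. Sp8 gave -0.58, -1.86, -1.80 and -0.37 in B6 mice and -1.25, -0.80, -0.15 and -0.90 in BTBR/R mice, a 2.81-fold span in B6 and a 2.15-fold span in BTBR/R. The mice high for Th were thus also the mice high for Sp8.

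Olfactory bulb markers moved with Th from mouse to mouse. Over 8 arrays, Doc2g and Cdhr1, which were detected on all of them, had an r of 0.946 and 0.923 with Th probe 1. The other 3 listed genes had an r of 0.87 to 0.963, which rests in part on arrays that did not detect them. Doc2g gave -0.03, -1.03, -0.71 and 0.57 in B6 mice and -0.61, 0.50, 0.80 and 0.03 in BTBR/R mice. The mean of Doc2g and Cdhr1 lay at -1.38 to 0.29 in B6 and at 0.01 to 0.98 in BTBR/R mice. Cdhr1, a cadherin-like protein of mitral cells, was called 1.87 higher in BTBR/R mice (standard error 0.36, limma adjusted p = 0.00466), and the brightest probes of the others did not pass. Tbx21 was detected on 4 B6 and 2 BTBR/R arrays, Eomes on 3 and 3, and Scgn on 2 and 0. The part of olfactory bulb tissue in the Th values was not tested.

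Markers of other tissues and of other cells with Th transcripts were looked at by their detection and their levels. Among 12 midbrain dopamine neuron genes, the transcription factors En1, Foxa1, Foxa2 and Lmx1a were detected on no array and 5 genes were detected on all 8. These 5 genes had mean levels of 0.42 to 0.72 in B6 and 0.51 to 0.70 in BTBR/R mice, and the lowest p was that of Nr4a2, a nuclear receptor also found in cortex (0.28, limma adjusted p = 0.0397), which did not pass in 13 of 20 alternative settings. The second Nr4a2 probe rose by 0.30 (limma adjusted p = 0.0201). None of 6 noradrenergic and serotonergic genes was detected on all 8 arrays, and Slc6a2, Slc6a4 and Fev were among those detected on none. Dbh, the enzyme that makes noradrenaline from dopamine, was detected on 4 B6 and 3 BTBR/R arrays, and Tph2, the enzyme of serotonin synthesis in neurons, on 2 B6 arrays. Thalamus and hypothalamus genes had their highest mean levels in B6 replicate 1 (1.66) and BTBR/R replicate 2 (0.54), where the other mice lay between -1.73 and -0.71. For Prkcd, a thalamic kinase, the r with Th probe 1 was 0.212, and for the hypothalamic peptide gene Oxt -0.0219. The highest Slc6a3 value was that of BTBR/R replicate 2. Leaving out B6 replicate 1 and BTBR/R replicate 2 was a choice made after seeing the data. Without them, 0 of the 11 probes detected on every array of a strain were called, as with all mice. When only such probes of the whole array were tested with all mice, 1557 of 35539 were called.

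**Figure D3:**
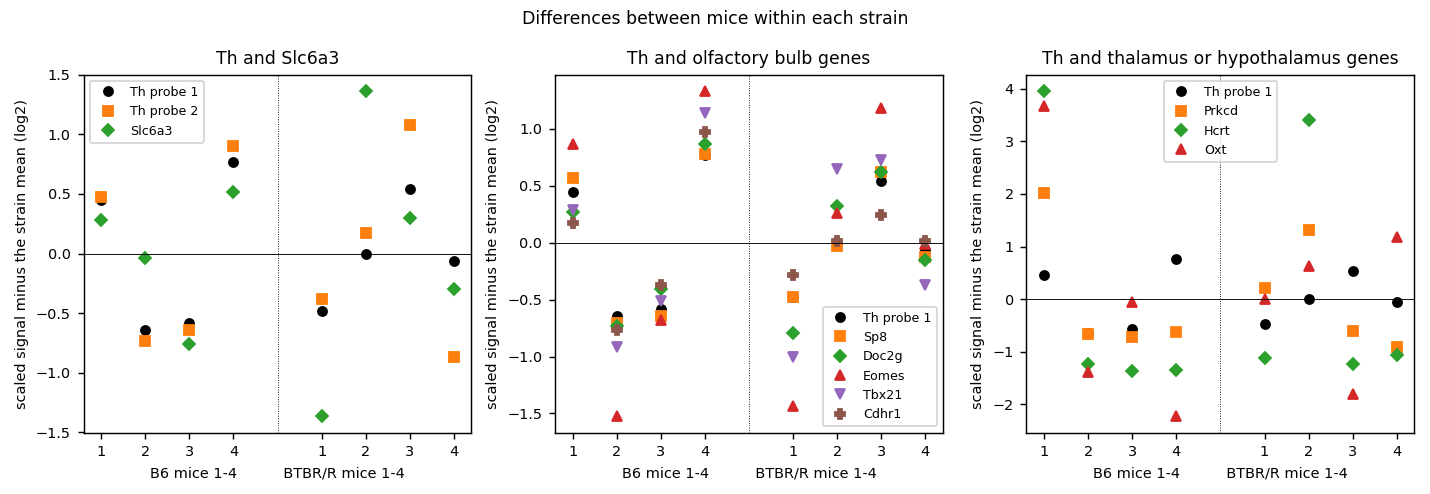
Scaled signal minus the strain mean (log2) in each mouse for Th with Slc6a3 (left), with Sp8 and olfactory bulb genes (middle) and with thalamus or hypothalamus genes (right). In the middle panel the symbols of B6 replicates 1 and 4 and BTBR/R replicate 3 lie above 0 and those of B6 replicates 2 and 3 and BTBR/R replicate 1 below 0, as for Th.

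Maoa, one of the enzymes that oxidize dopamine, serotonin and noradrenaline, gave 0.45, 0.22, 0.13 and 0.18 in B6 mice and 0.22, 0.39, 0.17 and 0.09 in BTBR/R mice at chrX:16263318-16263377. The strains overlapped and the change was -0.03 (standard error 0.09, limma adjusted p = 0.856), with a 95% interval of the ratio from 0.844 to 1.14. B6 replicate 1 and BTBR/R replicate 2, the mice with the highest thalamus and hypothalamus levels, were also the highest for Maoa within their strains. Maob, the other monoamine oxidase, fell on both of its probes, by 0.63 (standard error 0.08, limma adjusted p = 0.000516) and by 0.47 (standard error 0.10, limma adjusted p = 0.00838). The dimmer probe did not pass with normexp (-0.18, limma adjusted p = 0.0948) or without B6 replicate 1 and BTBR/R replicate 2 (-0.45, limma adjusted p = 0.0538). The brighter Maob probe was at 1.35, 1.29, 1.20 and 1.13 in B6 mice and at 0.69, 0.70, 0.65 and 0.44 in BTBR/R mice, with no overlap. Whether the changes of Maoa and Maob differed was not tested.

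The other genes of the pathway, listed by role, comprised 40 genes, of which 37 had a brightest probe detected on all 8 arrays. Of these 37, 4 were higher and 5 lower in BTBR/R mice at an adjusted p below 0.05, and 28 did not pass. That is 24.3% of them, beside 28.4% of all 18850 gene names with such a probe, and the median change was 0.02 beside 0.00.

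Of 7 genes for dopamine synthesis and its tetrahydrobiopterin cofactor, Gch1, which makes the first step of the cofactor, rose by 0.49 (standard error 0.10, limma adjusted p = 0.00632). Gchfr, which codes for a regulator of that enzyme, rose by 0.84 (standard error 0.17, limma adjusted p = 0.00601). Gchfr lay at -3.06 to -2.21 in B6 and at -1.92 to -1.80 in BTBR/R mice. Pts, the next enzyme of cofactor synthesis, fell by 0.23 (limma adjusted p = 0.0251). Ddc, which makes dopamine from DOPA, gave 1.50, 0.64, 0.70 and 0.98 in B6 mice and 1.30, 1.14, 0.77 and 0.87 in BTBR/R mice, with a change of 0.07 (limma adjusted p = 0.835).

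Among 5 transporter genes, Slc22a3, a low-affinity monoamine transporter, fell by 0.45 (standard error 0.12, limma adjusted p = 0.0202), and Slc18a2, the vesicular transporter of monoamine neurons, did not pass (0.04, limma adjusted p = 0.769). Slc18a1, the vesicular transporter of endocrine cells, had 5 probes that disagreed. Its brightest probe was detected on all 4 B6 arrays and no BTBR/R array with a change of -1.65, but its B6 signal lay under the BTBR/R detection limit, so that no fold is given. Another Slc18a1 probe was detected on 2 BTBR/R arrays and no B6 array. Of 5 breakdown genes detected on all 8 arrays, Maob alone passed on its brightest probe, and dimmer probes for Aldh2, an aldehyde dehydrogenase, fell by 0.14 and 0.18 (limma adjusted p = 0.049 and 0.0365).

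Of 22 receptor signalling genes, 18 did not pass on their brightest probe. Pde10a was the only one called on a detected probe, at 3.87 to 3.96 in B6 and at 2.76 to 2.94 in BTBR/R mice. With spike-in scaling its change was -0.95, under 2-fold. Arpp19, a substrate of protein kinase A, fell by 0.27 (limma adjusted p = 0.0043), while Caly, a D1 receptor interacting protein, rose by 0.20 (limma adjusted p = 0.018) and Grk6, a receptor kinase, by 0.15 (limma adjusted p = 0.0261). The G protein subunit Gnal, the adenylyl cyclase Adcy5 and Ppp1r1b, the phosphoprotein downstream of the D1 receptor, differed by -0.06, -0.03 and -0.06 and did not pass. The second Arpp19 probe differed by 0.01 and the other Grk6 probes by 0.02 and 0.16, and none of these passed. Some dimmer probes detected on all 8 arrays passed where the brightest of their gene did not. These were 1 of several probes for Arpp21, another substrate of protein kinase A (-0.85, limma adjusted p = 3.48e-05), 1 for Gnas, a stimulatory G protein subunit (0.60, limma adjusted p = 0.000313), and 1 for Rgs9, a regulator of G protein signalling (-0.16, limma adjusted p = 0.042). A further Gnas probe, detected on no array, met the rule for a call (1.48).

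**Figure D4:**
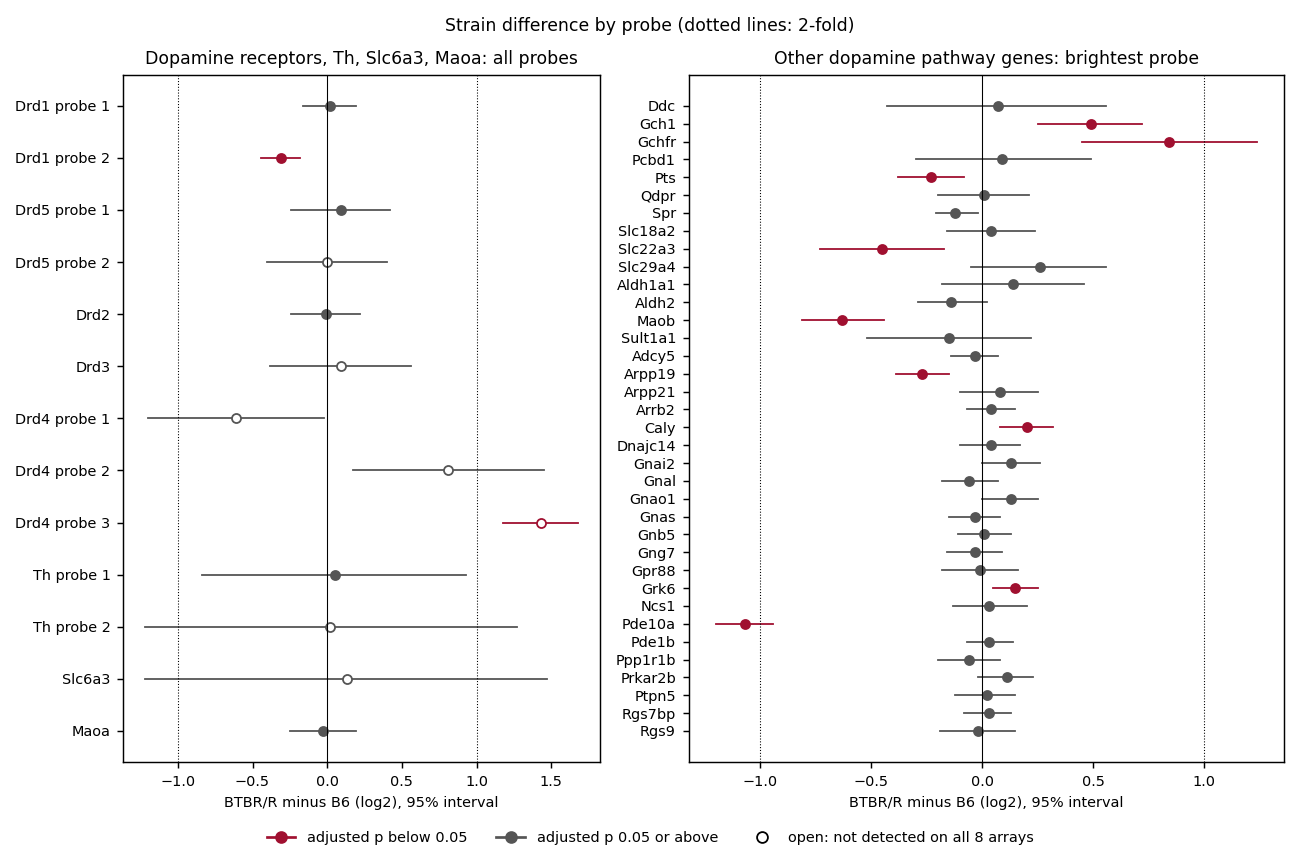
BTBR/R minus B6 (log2) with 95% intervals for the 13 probes (left, open circles not detected on all 8 arrays) and for the brightest probe of other pathway genes detected on all 8 arrays (right, 1 gene not drawn), in red where the adjusted p was below 0.05. Pde10a lies at -1.07, past the dotted 2-fold line, and Th and Slc6a3 have the widest intervals of the left panel.

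For the other members detected on all 8 arrays, the 5 most similar genes over 8 arrays, by r of within-strain deviations, were as follows. Those of Drd1 probe 1 were Mrpl9, Sftpc, Cep83, Ttc21b and Acot6 (0.950 to 0.956), and with the 2 farthest mice left out their r fell to between 0.772 and 0.940. Those of Drd2 were Gpank1, Prr16, Trdmt1, Cdkn2aip and Tmsb15b1 (0.941 to 0.975, and 0.614 to 0.845 with 2 mice left out). Those of Drd5 were Ankrd44, Npm1, Gpc5, Pcf11 and 4632428N05Rik (0.931 to 0.949, and 0.717 to 0.887). Those of Maoa were Gpx4, a lipid peroxidase (0.997), Rpph1, Crkl, Tbl1x and Fam161a (0.970 to 0.986), with 0.879 to 0.986 when 2 mice were left out. For Drd1 and Drd2 the genes with the highest r spanned little between mice, at most 1.65-fold within a strain.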

How the data were processed

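The authors measured each array with Agilent Feature Extraction 10.7.3.1 (per the submitters' processing notes) and deposited spot intensities, among them processed signals that the software had corrected for background and spatial trends. The authors also deposited log2 values, which equalled the log2 processed signal after a shift by a single number on each array (to 0.01, for 99.972% of probes or more). Here, control spots and outlier flags were left out of 62976 spots, spots of a probe were averaged, and log2 processed signals of 56605 probes were scaled to the 75th percentile of each array (535 to 589). Strains were compared over all 8 arrays with limma 3.58.1 in R 4.3.3. Tables and plots were made with numpy 2.4.6, pandas 2.3.3 and matplotlib 3.10.9 (Python 3.11.15). Tested on simulated data for BTBR/R against B6 over 56583 probes, the fit called 175 of 200 changed probes and 3 unchanged ones. The planted changes were all above 2-fold and none was put in the noisiest probes. The count therefore does not tell how often smaller changes, or changes of probes as variable as those for Th, would be found. Precision is limited by having 4 arrays of each strain. The arrays had 0 saturated probes.

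The members, gene lists and tests were chosen with earlier results of these data known. Named genes were all members, the gene with the lowest p and any gene with a detected called probe in each of 4 pathway and 13 marker lists, and the 5 genes most like each member. Others named were chosen after their values were seen. Some listed genes are counted but not reported by name here. Gene names were kept as the files give them, and genes for likeness had a name found in the reference table of mouse genes. Sequences are those of the probes in the scanner files. Alternatives are listed in the closing section.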

Additional observations from a re-analysis of the deposited data

Results flagged for a closer look

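Over 58 sets of 4 mice (13 probes and 16 lists in each strain), a single value stood apart from the other 3 of its strain. The measure was the gap between it and its nearest neighbour relative to the range. Chance alone flags about 1 in 20 of such sets, so that 1 flag among 58 sets is no more than chance gives. Drd3 in BTBR/R replicate 3 lay at -5.09 and the other BTBR/R mice at -4.32 to -4.27, a gap of 0.932 of the range. The probe was detected on no BTBR/R array.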

How the results depend on the processing

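Results were recomputed with quantile normalization, with normexp (offset 50) in place of the processed signal, with 3 other scalings (array median, detected probes only, 7 spike-in controls), from the log2 values as deposited, with a filter on dim probes, a floor at the highest detection limit, the methods' t-test, limma with trend and robust options, a replicate block and leaving out each mouse, plus leaving out B6 replicate 1 and BTBR/R replicate 2 together, which was added after seeing the data. Over 258 recomputed changes of the 13 probes, 249 kept their side of the threshold, 4 lost it, 5 gained it and 0 reversed. Those that lost it were Drd1 probe 2 under spike-in scaling (-0.20) and Drd4 probe 3 under normexp, quantile normalization and the floor. Those that gained it were Drd4 probes 1 and 2, detected on 5 and 0 arrays. Among member probes detected on every array of a strain, 0 were called under every alternative run. With the filter on dim probes, 1557 of all 35539 such probes were called. The count over all 13 probes, 1, became 0 with normexp, quantile normalization, the filter and the floor, and 1 to 2 when a mouse was left out (2 without B6 replicate 4). Called pathway probes detected on every array of a strain fell from 2 to 1 with normexp, spike-in scaling and the floor. They numbered 2 to 3 when a mouse was left out (3 without B6 replicate 1). This count and that of the marker probes stand beside the 1557 of 35539 probes above and were not tested against them. Called marker probes numbered 6 and became 3 with the floor, the methods' t-test and without both mice, and 3 to 6 when 1 mouse was left out (3 without B6 replicate 2 or 3 or BTBR/R replicate 1, 2 or 3). The cause was not tested, and the haemoglobin gene Hba-a1 (-1.18) and the erythroid gene Alas2 (-1.36) were among those that no longer passed. The change of the Drd1 probe distance stayed between -0.35 and -0.31 and passed in all 14 settings run. Relative to the striatal list, Drd1 probe 2 changed by -0.07 with normexp and by -0.29 without Pde10a and Scn4b, Drd1 probe 1 by 0.04 and Drd2 by 0.01 without these genes. Replicate numbers did not pair the mice (r of -0.0699 to 0.1561 between same-numbered mice), and with the replicate block Drd1 probe 2 changed by -0.31 (limma adjusted p = 0.0347). Dim probes are limited by the higher detection limit of the BTBR/R arrays.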

Other observations

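Drd2 ran opposite to the choroid plexus gene Ttr, a thyroid hormone carrier, with an r of -0.986 between within-strain deviations over 8 arrays, a pattern chosen after its values were seen. Ttr gave 5.22, 4.87, 3.66 and 0.55 in B6 mice and 2.13, 4.53, 4.28 and 3.93 in BTBR/R mice, a 25.4-fold span in B6. Drd2 was highest in B6 replicate 4, where Ttr was lowest, and spanned 1.29-fold over all mice. The 4 choroid plexus genes had mean levels of -1.39 to 1.24 in B6 and -0.49 to 0.63 in BTBR/R mice, and none passed the strain comparison, with the lowest p for Folr1 (-0.19, limma adjusted p = 0.839).

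Among markers of other cell types, Rorb of cortical excitatory neurons fell by 0.39 (limma adjusted p = 0.0263, not passing in 9 of 20 alternative settings), while Fezf2, a transcription factor of deep-layer neurons, rose by 0.32 (limma adjusted p = 0.0321), and the other 6 of 8 genes of that list did not pass on their brightest probe. Dimmer probes for Cux2, of upper-layer neurons, rose by 0.30 and 0.39 (limma adjusted p = 0.0223 and 0.00222). The astrocyte gene Aldh1l1 fell by 0.31 (limma adjusted p = 0.0159), but not past the threshold with spike-in scaling (-0.19, limma adjusted p = 0.0669) or without B6 replicate 1 and BTBR/R replicate 2, and 4 of 6 astrocyte genes did not pass. The oligodendrocyte gene Mobp fell by 0.80 (limma adjusted p = 0.0105), but did not pass without those 2 mice (limma adjusted p = 0.0576). Of the 6 oligodendrocyte genes 4 did not pass on their brightest probe, and the changes of these 6 probes were all below 0 (the highest was -0.07). Dimmer probes went both ways, with a fall of 0.45 for Mobp (limma adjusted p = 0.0287) and a rise of 0.48 for Mbp (limma adjusted p = 0.00143). The endothelial gene Cldn5 fell by 0.51 (limma adjusted p = 0.0129), while Flt1 and Pecam1 did not pass (-0.12 and -0.08, limma adjusted p = 0.142 and 0.318). The microglial receptor gene Cx3cr1 had 2 probes that moved in opposite directions, by -0.71 (limma adjusted p = 8.71e-05) and by 1.71 (limma adjusted p = 7.59e-07). Of the other microglia genes Aif1 fell by 0.25 (limma adjusted p = 0.00444), P2ry12 rose by 0.22 (limma adjusted p = 0.0478), and Csf1r and Tmem119 did not pass. Pomc, a hypothalamic peptide gene, rose by 0.35 (limma adjusted p = 0.000832), while the other 5 genes of its list detected on all 8 arrays did not pass.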
